A study of Lens culinaris with 50 samples.

Results

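The genes described here are the 150 lentil genes whose transcripts were held above a fixed level in the seed coat at every stage sampled and that stood furthest above the embryo at the stage where that difference was smallest. They were chosen from 58243 genes in the table on the values of the seed coat and embryo libraries. A gene first had to reach a mean of at least 100 normalized reads in the seed coat at all 8 stages, which 11455 genes did. For each of these, log2((seed coat + 1)/(embryo + 1)) was taken at every stage from the means of 2 libraries, and the genes were ranked by the smallest of their 8 values. The first 150 are called seed coat-held genes below.

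RNA was sequenced from seeds of Lens culinaris, a grain legume, of the ecotype CDC Gold, from plants grown without any experimental treatment other than emasculation and controlled pollination. Seed coat, embryo and intact whole seed were taken at 8 stages of the embryo, beginning with the zygote and passing through quadrant and globular, then heart and torpedo, then early and late bent stages to the mature embryo, and the unfertilized ovule was taken as a further sample of the whole seed kind. Each of the 25 groups had 2 libraries, 50 in all. The seed coat was what was left of a seed once the embryo had been taken out under a microscope, so any other tissue that stayed behind with the coat is part of it.

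The seed coat of a flowering plant grows from the integuments of the ovule and is therefore maternal tissue, while the embryo arises from fertilization. In legumes the coat unloads sugars and amino acids from the maternal phloem for the embryo, deposits pigments and phenolic compounds, and later forms the hard outer layers that control water entry and protect the dry seed. The gene identifiers could not be matched to names or functions here, so no role is given to any gene and the genes are ordered by their patterns of expression. For the same reason the seed coat label of the samples could not be set against known marker genes. Levels are in normalized reads, that is reads divided by 1 factor per library. They are not divided by gene length, so the order of levels between genes also reflects length.

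The libraries held 13019472 to 35634980 reads in genes, with a median of 23945567. In 5 libraries only 13.9% to 28.1% of genes were at 0, against 28.6% to 48.6% in the other library of the same group. These 5 were replicate 2 of seed coat at torpedo, early bent and mature, of embryo at mature and of whole seed at globular. Without them, 143 of the 150 genes were again chosen by the same rule. In seed coat at torpedo 22 of the 150 genes differed more than 4-fold between the replicates, 17 of them with the lower value in replicate 2, against 3.21% of the other genes that met the level part of the rule. In bulk samples, fewer cells of a type and less RNA per cell cannot be told apart, which holds for every level and change below.

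The smallest of the 8 log2 ratios of seed coat to embryo ran from 6.0 to 1.63 over the 150 genes, with a median of 2.18, or 4.53-fold. These values chose the genes and are given only as a description. In 7 genes the smallest ratio was over 16-fold, in 88 it lay between 4-fold and 16-fold, and in 55 it was under 4-fold. The list had no natural edge: the last genes inside it, Lcu.2RBY.2g000330 and Lcu.2RBY.6g036220, were both at 1.63, and the first outside it, Lcu.2RBY.6g028020 and Lcu.2RBY.3g033090, were both at 1.62. The stage that set the smallest ratio was the zygote stage in 118 genes and the mature stage in 9. Torpedo set it in 7, early bent in 6, late bent in 5, heart in 3, and quadrant and globular in 1 each.

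At each single stage both seed coat libraries stood above both embryo libraries in 147 of the 150 genes at all 8 stages, a pattern that 5.86% of the 29440 genes tested also had. The rule used these libraries, so nothing is read from the difference. The 3 exceptions, Lcu.2RBY.7g048440, Lcu.2RBY.5g067730 and Lcu.2RBY.2g006830, kept to it at 7 stages. In 105 genes all 16 seed coat libraries lay above all 16 embryo libraries whatever the stage, as in 1.71% of the genes tested.

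The median seed coat level of the 150 genes was 488 normalized reads at zygote, 492 at quadrant, 597 at globular, 644 at heart, 732 at torpedo, 941 at early bent, 1636 at late bent and 1796 at mature. In the embryo the medians at the same stages were 91.4, 21.1, 12.8, 16.3, 22.8, 36.2, 48.1 and 35.1. The seed coat median was thus highest at the end of the series, and the embryo median was highest at its start. Of all reads in genes, the 150 genes took 1.42% in the seed coat at zygote, 2.56% at heart and 4.56% at mature, and in the embryo 0.202% at zygote, 0.0359% at heart and 0.0385% at mature. The embryo level as a percentage of the seed coat level had a median of 20.1% at zygote, 3.69% at quadrant, 1.76% at globular, 1.67% at heart, 3.15% at torpedo, 3.34% at early bent, 2.95% at late bent and 2.64% at mature. In the zygote-stage embryo 73 of the 150 genes averaged at least 100 normalized reads, against 14477 of the 29440 genes tested. Of the 11305 other genes that met the level part of the rule, 11002 did. The rule used the embryo values, so nothing is read from this count.

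**Figure D1:**
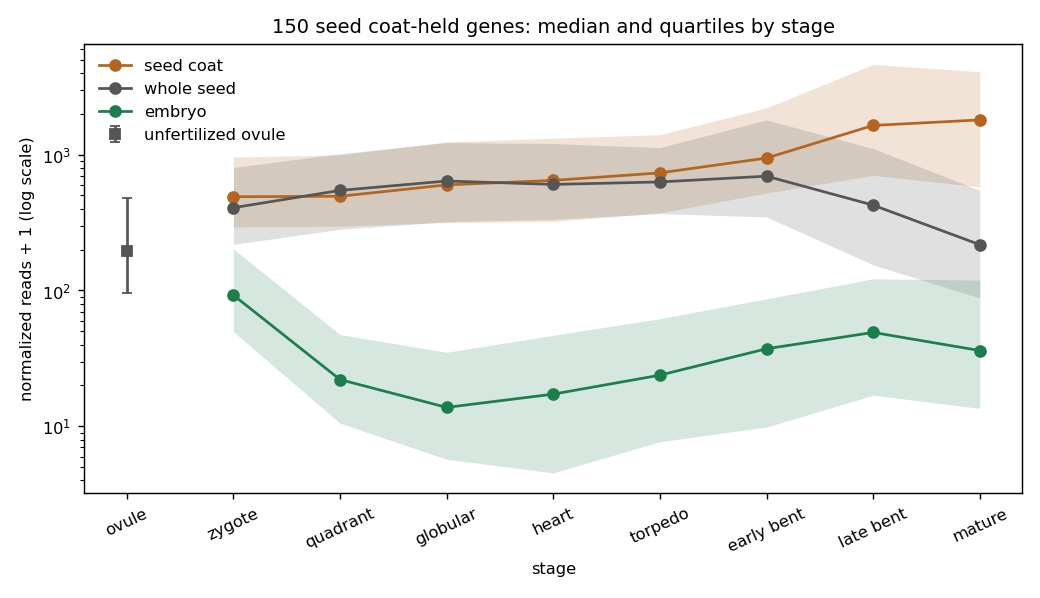
Median level of the 150 seed coat-held genes in normalized reads + 1 (log scale) at each of the 8 stages in seed coat, whole seed and embryo, with shading from the lower to the upper quartile over genes; the square is the unfertilized ovule with its quartiles. The seed coat median reached 1796 at mature, where the whole seed median was 216 and the embryo median 35.1.

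The gene ranked first, Lcu.2RBY.6g062020, was barely present in the embryo. Its seed coat libraries gave 171 and 246 normalized reads at zygote, 178 and 212 at heart, 761 and 729 at late bent, with 1301 and 753 at mature. Its embryo libraries gave 4.54 and 0 at zygote, 1.40 and 0 at heart, 0 and 0 at late bent, with 0 and 10.1 at mature. Its lowest seed coat library, with 138 at quadrant, lay above its highest embryo library.

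The gene ranked second, Lcu.2RBY.1g005900, was both seed coat-weighted and strongly stage-dependent. It had 1951 and 1835 normalized reads in seed coat at zygote, 764 and 947 at heart, and 3680 and 13300 at torpedo. The late bent libraries held 57414 and 113610 and the mature ones 144787 and 151297. In the embryo it had 50.9 and 20.9 at zygote, 1.40 and 2.86 at heart, and 83.2 and 113 at mature. Its level therefore lay within a factor of 3 of that at zygote up to heart and was far higher at late bent and mature in both libraries. Lcu.2RBY.4g074460, next in rank, was the only gene of the 150 with at least 10000 normalized reads in seed coat at all 8 stages. Its seed coat libraries had 16485 and 14797 at zygote, 14696 and 20421 at heart, then 198876 and 296205 at late bent before 392318 and 408173 at mature. Its embryo libraries had 391 and 276 at zygote, 25.9 and 24.3 at heart, and 193 and 192 at mature. The lowest seed coat library exceeded the highest embryo library, which was 501 at quadrant.

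Among the next 5 genes by rank, Lcu.2RBY.2g017770, Lcu.2RBY.2g027630 and Lcu.2RBY.4g074440 had their highest seed coat mean at mature. In Lcu.2RBY.4g074440 it was only 2.45-fold above the lowest stage mean. Lcu.2RBY.2g047480 was highest at heart and Lcu.2RBY.1g076550 at zygote. Lcu.2RBY.2g017770 had 23311 and 27269 normalized reads in seed coat at mature, against 20.0 and 16.8 in embryo. Lcu.2RBY.2g027630 had 12578 and 16505 in seed coat at mature, against 26.6 and 13.5 in embryo, and 146 and 168 in seed coat at heart, against 0 and 1.43 in embryo. Both genes separated the tissues in every library at these stages. Lcu.2RBY.4g074440 stayed between 91.5 and 411 normalized reads in the 16 seed coat libraries and never passed 10.9 in an embryo library. Lcu.2RBY.2g047480 had 695 and 419 in seed coat at zygote and 378 and 495 at mature, against 29.1 and 46.9 in embryo at zygote and 1.66 and 3.37 at mature. Lcu.2RBY.1g076550 had 826 and 580 in seed coat at zygote and 143 and 245 at mature, against 13.6 and 19.3 in embryo at zygote and 4.99 and 1.68 at mature.

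**Figure D2:**
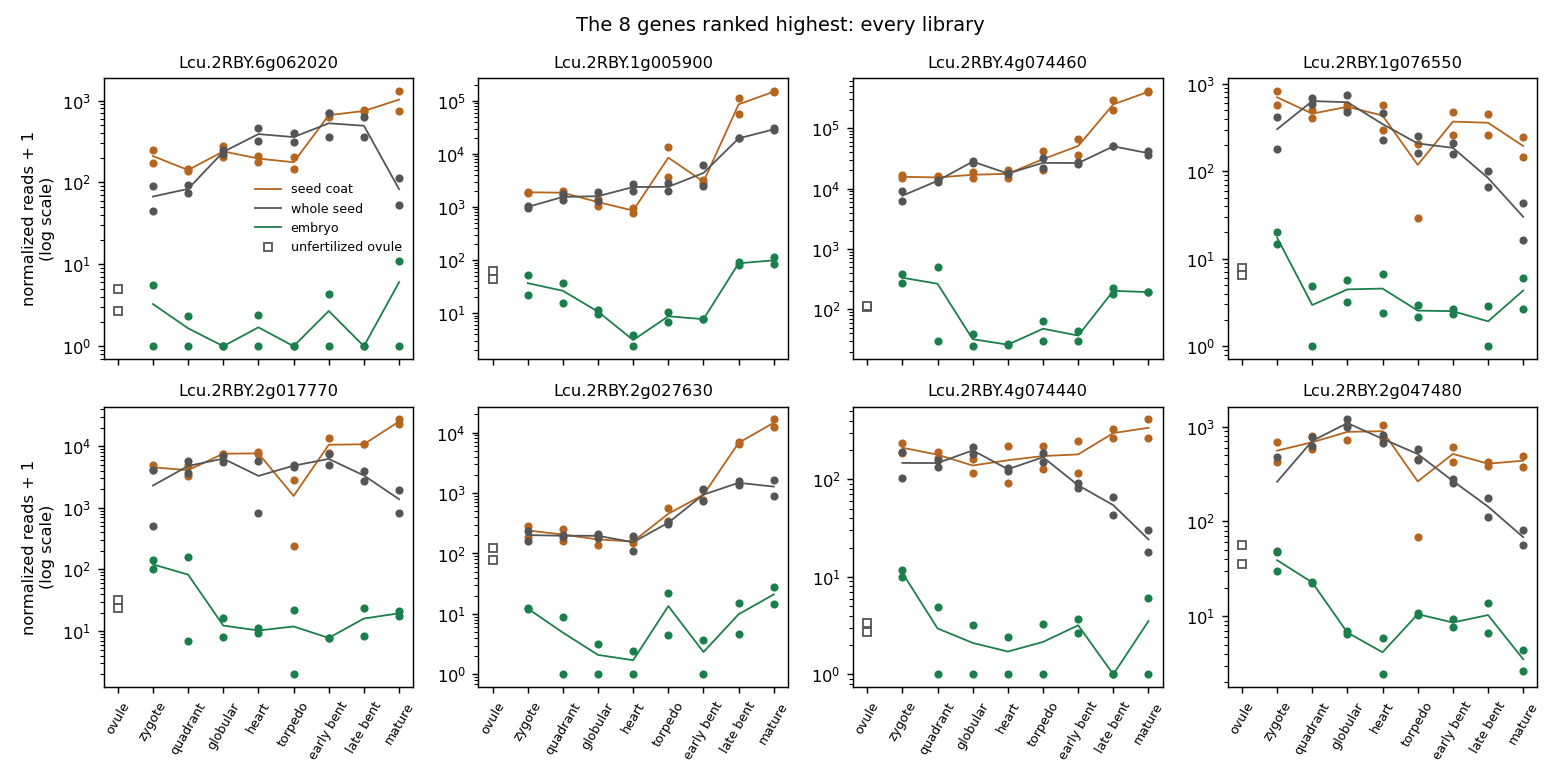
Normalized reads + 1 (log scale) of the 8 genes ranked highest by the rule in every library, by stage; points are single libraries, lines join the means of 2 libraries in seed coat, whole seed and embryo, and open squares are the 2 ovule libraries. Seed coat and embryo separate at all stages, and at mature the whole seed mean lies below the seed coat mean in all 8 genes.

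A few genes carried most of the transcript abundance. The 5 genes with the highest seed coat mean over the 8 stages held 53.0% of the summed mean level of the 150. They were Lcu.2RBY.2g093830 with a mean over stages of 99540 normalized reads, Lcu.2RBY.4g074460 with 99300, Lcu.2RBY.3g005030 with 52055, Lcu.2RBY.4g031480 with 37860 and Lcu.2RBY.1g005900 with 31360. Altogether 7 genes averaged at least 10000 normalized reads in the seed coat, 75 averaged between 1000 and 10000, and 68 averaged under 1000.

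The 2 most abundant genes had opposite courses. Lcu.2RBY.2g093830 gave 65040 and 48265 normalized reads in seed coat at zygote, 188030 and 154718 at globular, and 218225 and 66096 at torpedo. It still had 207444 and 168023 at early bent, then only 4067 and 1577 at late bent, with 232 and 180 left at mature. In embryo it gave 6860 and 5721 at zygote, 926 and 1129 at globular, and 13.3 and 32 at mature. This gene met the level required at every stage while its seed coat mean differed 911-fold between early bent and mature. Lcu.2RBY.4g074460, by contrast, had its highest seed coat level at mature, as given above. Lcu.2RBY.3g005030 followed the first course, with 94536 and 99538 in seed coat at heart, 97535 and 27294 at late bent but 1422 and 1016 at mature. Its embryo libraries held 4423 and 3969 at zygote and 145 and 167 at mature. Lcu.2RBY.4g031480 had 10258 and 8770 in seed coat at zygote, 37563 and 89758 at torpedo and 78736 and 53437 at mature, against 2309 and 2586, 846 and 317, and 108 and 133 in embryo at those stages.

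Being held in the seed coat at every stage did not mean a steady level. The ratio of the highest to the lowest seed coat stage mean had a median of 6.71 over the 150 genes, with quartiles of 4.12 and 13.5. It was over 10 in 51 genes and over 100 in 3, Lcu.2RBY.2g093830, Lcu.2RBY.1g005900 at 173 and Lcu.2RBY.4g073960 at 128. It was under 2 in 4 genes, Lcu.2RBY.7g022840 at 1.48, Lcu.2RBY.5g053150 at 1.52, Lcu.2RBY.4g070490 at 1.57 and Lcu.2RBY.2g000330 at 1.93, which were chosen for mention after their values were seen. The steadiest, Lcu.2RBY.7g022840, averaged 756 ± 78.3 normalized reads in seed coat at zygote, 766 ± 44.7 at heart and 682 ± 92.1 at mature (SD, n = 2 each). These means lay within the spread of the replicates, but they leave out its highest stage mean, at quadrant, and its lowest, at globular. Its single seed coat libraries ran from 567 to 933.

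The seed coat maximum fell late in most of the 150 genes. It was at mature in 68, at late bent in 39, at early bent in 19, at heart in 10, at torpedo in 6, at quadrant in 4, at zygote in 3 and at globular in 1. By the mean log2 level of the last 4 stages minus that of the first 4, 68 genes were late-weighted (1 or more), 77 were even and 5 were early-weighted (-1 or less). The late-weighted genes had seed coat medians of 354 at zygote, 414 at heart, 820 at torpedo, 1223 at early bent, 3054 at late bent and 3005 at mature. The even genes had 627 at zygote, 829 at heart and 735 at mature. The early-weighted genes, Lcu.2RBY.2g093830, Lcu.2RBY.2g077370, Lcu.2RBY.4g069060, Lcu.2RBY.1g004260 and Lcu.2RBY.1g076550, had medians of 2503 at zygote, 1399 at heart and 274 at mature. In 22 of the 150 all 8 late seed coat libraries lay above all 8 early ones, near the share of 13.4% among the genes tested. In 2, Lcu.2RBY.4g069060 and Lcu.2RBY.2g077370, all 8 late ones lay below all 8 early ones, against 8.01%. The rule used these libraries, so nothing is read from these counts. The stage of the maximum and the 3 classes were not counted over other genes, so a late maximum is not shown to be particular to this list.

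**Figure D3:**
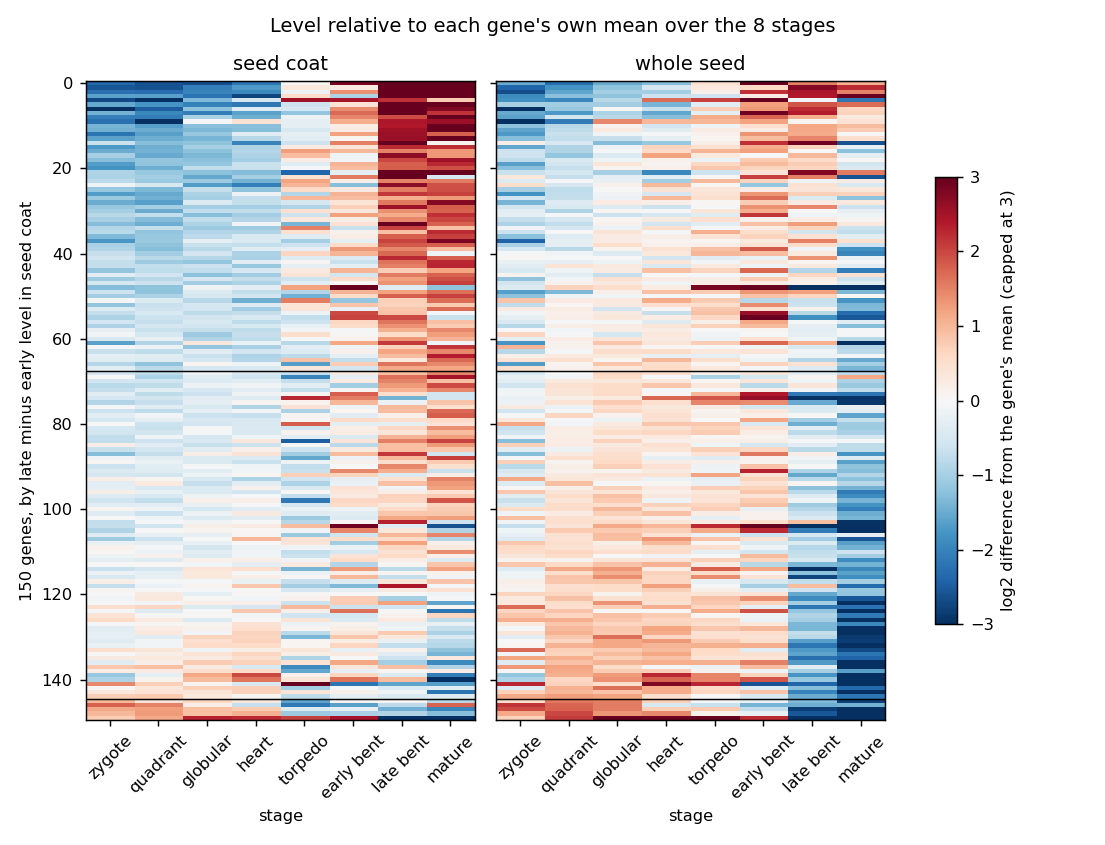
Level of each of the 150 genes at each stage as the log2 difference from that gene's own mean over the 8 stages (colour, capped at 3), in seed coat and whole seed, with genes in order of late minus early level in seed coat and lines at the limits of the 68 late-weighted, 77 even and 5 early-weighted genes. Many genes that were high in the seed coat at late bent and mature were low in the whole seed at mature.

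The whole seed and ovule libraries took no part in choosing the genes, but setting them against seed coat or embryo uses the values that did. The whole seed medians of the 150 genes were 405 normalized reads at zygote, 544 at quadrant, 637 at globular, 602 at heart, 628 at torpedo, 692 at early bent, 423 at late bent and 216 at mature. The genes took 1.06% of whole seed reads at zygote, 2.67% at torpedo, 2.36% at early bent, 0.440% at late bent and 0.296% at mature. The whole seed median was thus highest at early bent and lowest at mature. All 150 were detected in every whole seed library, and 97 averaged at least 100 normalized reads in the whole seed at all 8 stages. These counts were not made over other genes. At mature alone 108 of the 150 averaged at least 100, against 14279 of the 29440 genes tested. Of the 11305 other genes that met the level part of the rule, 10892 did, a larger share than of the 150.

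As a percentage of the seed coat level of the same stage, the whole seed level had a median over the 150 genes of 76.2% at zygote, 99.2% at quadrant, 105% at globular, 94.1% at heart, 99.9% at torpedo, 74.3% at early bent, 23.6% at late bent and 12.9% at mature. The seed coat level in the denominator took part in the choice of genes. Over the 11305 other genes that reached the seed coat level at all stages, the same medians lay between 89.9% at late bent and 101% at globular. The mirror rule, applied to the embryo, gave 150 embryo-held genes for which the whole seed reached a median of 24.4% of the embryo level at zygote, 30.9% at early bent, 86.9% at late bent and 89.7% at mature. The 2 lists moved in opposite directions across the same step, from early bent to late bent. Whether the share of embryo RNA in the whole seed sets this was not tested.

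At mature, 148 of the 150 genes were at less than 50% of their seed coat level in the whole seed. Of the 11305 other genes that met the level part of the rule, 2260 were. The exceptions among the 150 were Lcu.2RBY.2g093830 at 85.1%, which was itself low in the mature seed coat, and Lcu.2RBY.3g005030 at 57.1%. At late bent 148 of the 150 were again under 50%, against 2044 of the 11305 other genes. There the exceptions among the 150 were Lcu.2RBY.6g062020 at 66.0% and Lcu.2RBY.5g055270 at 56.7%. Both whole seed libraries lay below both seed coat libraries in 150 genes at late bent, against 43.4% of the genes tested, and in 149 at mature, against 41.6%. Far fewer genes did so at the earlier stages. The counts were 86 at zygote (16.7% of the genes tested), 32 at quadrant (19.7%), 16 at globular (11.8%), 42 at heart (22.6%), 32 at torpedo (21.6%) and 74 at early bent (27.9%). Set against the embryo, both whole seed libraries were above both embryo libraries in 143 of the 150 at late bent, against 21.4% of the genes tested, and in 137 at mature, against 20.3%. The rule used the seed coat and embryo libraries, so nothing is read from the differences to the other genes or the genes tested.

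**Figure D4:**
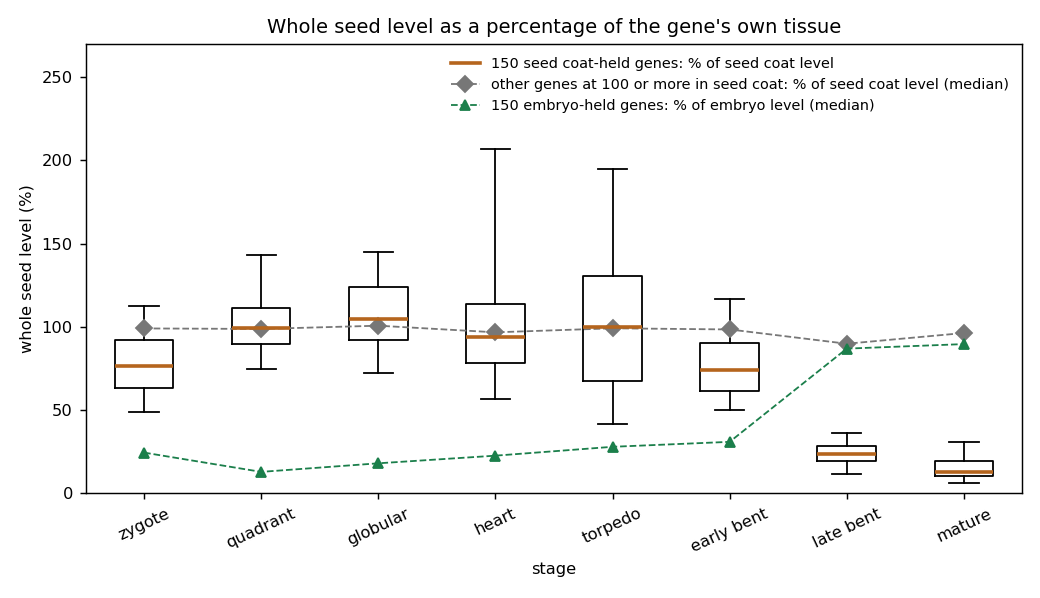
Whole seed level as a percentage of the level in the gene's own tissue by stage; boxes show the quartiles and median over the 150 seed coat-held genes as a percentage of seed coat, with whiskers from the 5th to the 95th percentile, diamonds the median of 11305 other genes at 100 or more in seed coat, and triangles the median of 150 embryo-held genes as a percentage of embryo. The boxes drop to a median of 23.6% at late bent and 12.9% at mature, where the triangles stand at 86.9% and 89.7%.

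Between early bent and late bent, the isolated coat and the whole seed gave different counts. Both late bent libraries lay below both early bent libraries in the whole seed in 98 of the 150 genes, against 34.2% of the genes tested. In the seed coat both late bent libraries lay above both early bent libraries in 93, against 28.5%. In 44 genes both held at once, against 6.73% of the genes tested. From late bent to mature, both mature libraries of the whole seed lay below both late bent libraries in 104 genes, against 28.4%. Over the whole span, 45 of the 150 genes had both mature libraries above both zygote libraries in the seed coat and below both in the whole seed, against 7.7% of the genes tested, and 0 had the reverse, against 4.41%. These are counts of libraries without a test. The rule used the seed coat libraries, so nothing is read from how the counts that involve them differ from the genes tested.

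Mature and zygote-stage whole seeds were compared with limma on log2(normalized reads + 1), with all 50 libraries sharing 1 estimate of the spread. A gene was called changed where its p, adjusted by the Benjamini-Hochberg method over the 29440 genes tested, was under 0.05 and its fold was at least 2. Of the 150 genes, 20 were higher at mature, 71 were lower and 59 were not called, while 17.7% of all genes tested were called higher and 17.8% lower. Over the 11305 other genes that reached the seed coat level at all stages the shares were 19% and 16%. The median log2 difference was -0.96 over the 150 and -0.02 over all genes tested. Among the 150 embryo-held genes 75 were called higher and 8 lower. Of the 68 genes that were late-weighted in the seed coat, 19 were higher and 13 lower in the mature whole seed. Of the 77 even genes 1 was higher and 53 were lower, and all 5 early-weighted genes were lower.

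The largest of the called rises was in Lcu.2RBY.1g005900, with 27729 and 30136 normalized reads in whole seed at mature, against 953 and 1049 at zygote (log2 difference 4.85 ± 0.46 SE, adjusted p = 5.38e-10). Lcu.2RBY.4g073960 had 2105 and 1269 at mature, against 91.9 and 40.5 at zygote (4.72 ± 0.60, adjusted p = 1.28e-07). Lcu.2RBY.5g065320 had 2435 and 3279 at mature, against 138 and 183 at zygote (4.15 ± 0.49, adjusted p = 2.78e-08). All 3 genes were late-weighted in the seed coat, where Lcu.2RBY.5g065320 had 12727 and 20042 at mature and 376 and 301 at zygote. Lcu.2RBY.6g026770 had 655 and 1288 at mature, against 48.2 and 92.5 at zygote (3.76 ± 0.55, adjusted p = 1.25e-06), after a whole seed maximum of 2790 and 3197 at late bent. The abundant Lcu.2RBY.4g074460 had 35589 and 41215 at mature, against 6136 and 9069 at zygote (2.36 ± 0.63, adjusted p = 0.00283), but was not called with quantile scaling (1.32, adjusted p = 0.0849). The mature whole seed libraries of each of these genes lay above both zygote libraries.

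The largest of the called falls was in Lcu.2RBY.2g093830, with 101 and 249 normalized reads in whole seed at mature, against 25882 and 37064 at zygote (log2 difference -7.60 ± 0.58 SE, adjusted p = 6.90e-12). Lcu.2RBY.3g045950 had 68.8 and 49.4 at mature, against 4607 and 2364 at zygote (-5.80 ± 0.51, adjusted p = 1.25e-10). Lcu.2RBY.4g069060 had 55.0 and 225 at mature, against 5228 and 4691 at zygote (-5.46 ± 0.56, adjusted p = 3.28e-09). The groups stood far apart in all 3 genes, and 2 of them were early-weighted in the seed coat. Lcu.2RBY.2g087250 had 270 and 417 at mature, against 9415 and 9040 at zygote (-4.78 ± 0.47, adjusted p = 9.26e-10). Its seed coat level was also lower over the last 4 stages than over the first 4 (mean log2 difference -0.76). The highest seed coat stage mean of this gene was nevertheless at late bent, with 15815 and 5817. Among the 8 genes ranked highest by the rule, Lcu.2RBY.2g027630 was higher at mature, at 2.62 ± 0.75 (adjusted p = 0.00515), but was not called without mature replicate 2 (2.17, adjusted p = 0.0657) or zygote replicate 2 (2.35, adjusted p = 0.0525). In the same group of 8, Lcu.2RBY.1g076550 was lower at mature, at -3.37 ± 0.72 (adjusted p = 2.63e-04), and so was Lcu.2RBY.4g074440 at -2.59 ± 0.69 (adjusted p = 0.00256). Lcu.2RBY.6g062020 at 0.28, Lcu.2RBY.2g017770 at -0.18 and Lcu.2RBY.2g047480 at -1.19 were not called; the last was lower without zygote replicate 1 (-2.82, adjusted p = 7.21e-04), with edgeR (-1.96, adjusted p = 0.0152) and with DESeq2 (-1.96, adjusted p = 0.00767). The last genes inside the list were both called lower, Lcu.2RBY.6g036220 at -3.31 ± 0.37 (adjusted p = 1.08e-08) and Lcu.2RBY.2g000330 at -1.21 ± 0.34 (adjusted p = 0.00367).

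The mean over the last 4 stages of the whole seed was also compared with that over the first 4 in the same limma model. There 20 of the 150 genes were higher late, 40 were lower and 90 were not called, against 15.3% of all genes tested called higher and 11.4% lower. Over the 11305 other genes held at the same level in the seed coat the shares were 7.38% and 6.34%. The median log2 difference was -0.33 over the 150 and 0.12 over all genes tested. The counts differed between the classes made from the isolated coat. Of the 68 late-weighted genes 20 were higher, 1 was lower and 47 were not called. Of the 77 even genes 34 were lower and 0 were higher, and 74 had a negative log2 difference. All 5 early-weighted genes were lower. The largest values among the named genes were 3.15 ± 0.24 for Lcu.2RBY.5g065320 (adjusted p = 3.09e-12) and -4.47 ± 0.29 for Lcu.2RBY.2g093830 (adjusted p = 8.93e-14). Lcu.2RBY.2g047480, not called between mature and zygote, was lower over the later stages at -1.52 ± 0.33 (adjusted p = 3.00e-04). Without the fold requirement the counts in this comparison were 34 higher and 63 lower, against 27.4% and 22.4% of all genes tested.

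Most of these transcripts were already present in the unfertilized ovule, though at lower levels than those of other genes held in the seed coat. Of the 150 genes, 107 averaged at least 100 normalized reads in the ovule, 39 lay between 10 and 100 and 4 lay under 10. At least 100 was reached by 11133 of the 11305 other genes held at the same level in the seed coat, a larger share. Over all genes tested it was reached by 14497 of 29440. The median in the ovule was 193, with quartiles of 94.1 and 479, against medians of 620 over the 11305 genes and 92.6 over all tested. The genes took 1.06% of reads in whole seed at zygote, against 0.656% in the ovule. The ovule level was 54.5% of the zygote-stage whole seed level in the median gene. It was under 10% in 10 genes, under 50% in 71, and over 100% in 27.

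Across fertilization, 45 of the 150 genes were higher in the zygote-stage whole seed than in the ovule, 0 were lower and 105 were not called, with limma and the same thresholds. Over all genes tested 1.64% were called higher and 2.27% lower, and over the 11305 other genes held at the same level in the seed coat 1.41% were called higher and 0.336% lower. At an unadjusted p under 0.05, 73 of the 150 were higher and 1 was lower, against 5.97% and 13.5% of all genes tested, and edgeR and DESeq2 also called 0 lower. The median log2 difference was 0.84 over the 150, -0.12 over all genes tested and -0.40 over the 150 embryo-held genes, of which 1 was called higher and 20 lower. The count of 45 depended on single libraries: it was 26 without ovule replicate 1, 19 without ovule replicate 2, 27 without zygote replicate 1 and 30 without zygote replicate 2, with 0 lower in each case. The share of all genes tested that was called higher moved with it, to 0.640%, 0.630%, 0.747% and 0.972% in the same order. The ovule libraries also had fewer genes at 0: the share was 39% and 38.7% in whole seed at zygote, against 18.2% and 21.6% in the ovule. The part of this in the result was not tested.

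The genes with the largest called rise lay below the ovule median of the 150 genes, which was 193. The first of them lay above the median of 92.6 over all genes tested. Lcu.2RBY.4g074460 had 6136 and 9069 normalized reads in whole seed at zygote, against 110 and 113 in the ovule (log2 difference 6.05 ± 0.63 SE, adjusted p = 2.07e-07). The next gene, Lcu.2RBY.2g017770, had 497 and 4104 at zygote, against 22.7 and 30.3 in the ovule (5.71 ± 1.13, adjusted p = 0.00210). Lcu.2RBY.4g074440 had 103 and 190 at zygote, against 1.70 and 2.40 in the ovule (5.54 ± 0.69, adjusted p = 2.17e-06). In all 3 the groups were apart, but the zygote libraries of Lcu.2RBY.2g017770 differed from each other by more than 8-fold, and without zygote replicate 2 this gene was not called (4.19, adjusted p = 0.101). Lcu.2RBY.1g076550 had 182 and 423 at zygote, against 6.80 and 5.59 in the ovule (5.28 ± 0.72, adjusted p = 1.10e-05). Lcu.2RBY.1g005900 had 953 and 1049, against 61.8 and 43.9 (4.24 ± 0.46, adjusted p = 2.92e-07), and Lcu.2RBY.6g062020 had 88.5 and 44, against 1.70 and 3.99 (4.11 ± 0.75, adjusted p = 7.12e-04). Of the 8 genes ranked highest by the rule, 6 were thus called higher at zygote. The other two, Lcu.2RBY.2g027630 at 1.03 and Lcu.2RBY.2g047480 at 1.76, were not called. Lcu.2RBY.2g047480 was called higher without zygote replicate 1 (3.40, adjusted p = 0.00182), with edgeR (2.54, adjusted p = 0.0171) and with DESeq2 (2.53, adjusted p = 0.00303).

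Other abundant genes were already at a high level before fertilization. Lcu.2RBY.2g093830 had 25882 and 37064 normalized reads in whole seed at zygote, against 19466 and 15856 in the ovule, and was not called (0.82, adjusted p = 0.470). Lcu.2RBY.2g087250 had 9415 and 9040 at zygote, against 15839 and 16737 in the ovule (-0.82, adjusted p = 0.345). Lcu.2RBY.4g069060 had 5228 and 4691 at zygote, against 9053 and 9499 in the ovule (-0.90, adjusted p = 0.392). For the last 2 genes both zygote libraries lay below both ovule libraries, but the difference did not pass the test. Lcu.2RBY.4g031480 was called higher at zygote, with 13887 and 8116, against 3633 and 2766 in the ovule (1.74 ± 0.39, adjusted p = 0.00617). It was not called without zygote replicate 1 (1.36, adjusted p = 0.179) or without ovule replicate 2 (1.55, adjusted p = 0.137).

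**Figure D5:**
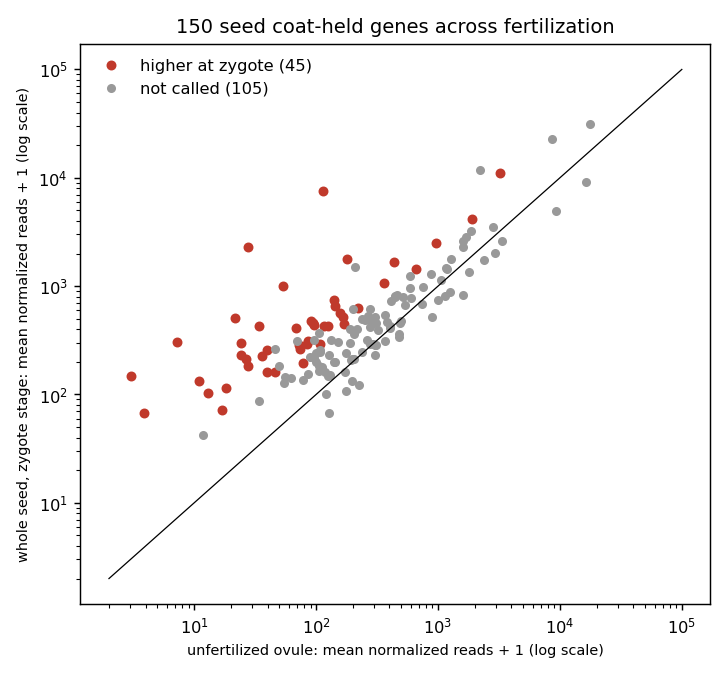
Mean of 2 whole seed libraries at zygote (vertical) against mean of 2 ovule libraries (horizontal) for the 150 genes, in normalized reads + 1 on log scales; red points are the 45 genes called higher at zygote, grey points the 105 not called, and the line marks equal levels. Most red points lie at the left, where the ovule level is low, and 0 genes were called lower.

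The genes are spread over the chromosome codes in their identifiers, with 17 to 26 on each of the codes 1 to 7 and 4 on codes that begin with L. In the order of identifiers 10 of the 150, or 6.67%, stood within 5 places of another of them and 0 stood next to one, against 8 and 6 of the 150 embryo-held genes. The 5 pairs included Lcu.2RBY.4g074460 with Lcu.2RBY.4g074440 and Lcu.2RBY.2g047480 with Lcu.2RBY.2g047460, each 2 places apart. Whether such neighbours are near-identical copies that share reads was not tested, so their separate levels are uncertain.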

How the data were processed

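Read counts per gene had been divided by the authors by 1 factor per library, and the deposited table holds these values as a signal, called normalized reads here. Whole reads were recovered for 100% of values (tolerance 0.001 reads). Tools named, without versions, per the submitters' processing notes are CASAVA, Trimmomatic, DESeq2 and featureCounts. Neither aligner nor genome build is given in the sources used here. The libraries were made with a low-input kit that amplifies RNA, per the labels' protocols.

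The 150 genes and the lists were chosen with earlier results of these data known. A gene was tested where 2 or more libraries held at least 10 normalized reads, as in 29440 of 58243, and all 150 passed, also on whole seed and ovule libraries alone. limma 3.58.1 (R 4.3.3; trend and robust options) was fitted on log2(normalized reads + 1) with 25 group means and 25 residual degrees of freedom. Fold changes on this scale understate those of low genes. Comparisons between whole seed groups were tested, and seed coat and embryo values were only described. The p-values judge a difference against the spread between replicates, estimated for each gene over all 25 groups, seed coat and embryo included. The labels do not say that replicates came from separate plants, so this spread may be technical. No replicate pair agreed within sampling noise (mean chi-square per gene at least 12.4). The named genes are the 8 ranked highest, the 5 with the highest seed coat mean, the 4 with the largest rise and 4 with the largest fall between mature and zygote whole seed, the 3 each way between zygote and ovule among those called with replicates apart, and those beside the rank limit; any other gene was named after its values were seen. Alternatives were pseudocounts of 0.5 and 8, no filter or one of 50, TMM and quantile scaling, a replicate block, no fold, leaving out replicates, edgeR 4.0.16 and DESeq2 1.42.0 on recovered reads; leaving out the 5 libraries with few genes at 0 was added after seeing the data. The limma fit was run on simulated counts with 200 genes changed in mature whole seed, for mature minus zygote only. These counts had 1 setting of spread for every gene and library, which the data need not follow. The other comparisons, edgeR and DESeq2 were not tested in this way.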

Additional observations from a re-analysis of the deposited data

Results flagged for a closer look

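In 45 of the 150 seed coat-held genes, or 30%, the isolated seed coat and the whole seed moved in opposite directions: both mature libraries lay above both zygote libraries in the seed coat and below both in the whole seed. Of all genes tested 7.7% had this pattern. The reverse pattern was found in 0 of the 150 and in 4.41% of the genes tested. The difference between the tissues was not tested, and the seed coat libraries took part in the choice of the genes. Of the named genes 3 showed it. For Lcu.2RBY.4g074440 the log2 difference of mature and zygote means was 0.68 in seed coat and -2.61 in whole seed. For Lcu.2RBY.4g031480 it was 2.80 in seed coat and -0.60 in whole seed, but the whole seed change was not called by limma (-0.54 ± 0.39 SE, adjusted p = 0.288). For Lcu.2RBY.2g000330 it was 0.37 in seed coat and -1.21 in whole seed.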

How the results depend on the processing

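Which genes are on the list depends on the rule's details. Of the 150 genes, 59 were chosen again without the zygote stage, 53 by the median of the 8 ratios, and 105 and 126 with replicate 1 or replicate 2 left out of every group. The count higher in zygote-stage whole seed than in ovule was 45, with 19 to 30 when 1 library was left out, 54 with TMM, 47 with quantile scaling, 56 with edgeR and 61 with DESeq2. Between mature and zygote, leaving out 1 library gave 17 to 18 higher and 57 to 68 lower, and between late and early stages 19 to 23 higher and 38 to 44 lower. Without the 5 libraries in which few genes were at 0, a choice made after seeing the data, the counts were 53 and 0, 21 and 73, and 21 and 45. With no fold required the late against early counts were 34 higher and 63 lower, against 27.4% and 22.4% of all genes tested. TMM moved the median of all genes by 0.12 for zygote minus ovule, -0.18 for mature minus zygote and -0.12 for late minus early, and quantile scaling by 0.10, -0.04 and -0.18. The cause of these differences was not tested. Over these settings, no called value of the 19 named genes changed sign in the 3 comparisons, while a call was lost in 10 cases, each 1 gene under 1 setting, and gained in 21. Deviations of same-numbered whole seed libraries correlated between -0.20 and 0.27 (median 0.03 over 36 pairs of groups, 8 of them over 0.1). Whether samples with the same replicate number were collected together cannot be told from these correlations. A replicate block left the counts at 45 and 0, 20 and 71, and 20 and 40.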

Other observations

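Some of the 150 genes differed more than 4-fold between the replicates of single groups. In seed coat at torpedo 22 did, 17 of them lower in replicate 2, against 3.21% of the other genes that met the level part. In whole seed, 8 did at heart and 5 at zygote, all lower in replicate 1, against 5.10% and 0.203% of the other genes that met the level part of the rule. The heart count is near that share. In embryo at quadrant 25 did, 23 of them lower in replicate 2, against 4.77%. In the ovule 0 did. Lcu.2RBY.2g017770 and Lcu.2RBY.7g048440 were low in all of these libraries. Lcu.2RBY.7g048440 had 916 and 0.826 normalized reads in seed coat at torpedo, 95 and 1234 in whole seed at heart, and 12.9 and 851 in whole seed at zygote. Lcu.2RBY.2g017770 had 2877 and 238 in seed coat at torpedo and 809 and 5789 in whole seed at heart. Seed coat replicate 2 at torpedo belongs to the 5 libraries in which few genes were at 0.

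In whole seed the 150 genes had their highest stage mean most often at early bent, in 45, and their lowest most often at mature, in 87. The highest was at mature in 2 genes. Among the 150 embryo-held genes the highest was at early bent in 6, at late bent in 71 and at mature in 38. These stages were not counted over all genes tested, so they are not shown to be particular to the list.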
